A study of Mus musculus with 6 samples.

Results

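The genes described here encode the subunits of voltage-gated sodium and calcium channels. They were chosen by symbol, as Scn genes ending in a or b, Cacna1 genes a to i and s, Cacna2d1 to Cacna2d4 and Cacnb1 to Cacnb4. The choice gave 32 genes of 54787 symbols in the table of linear transcripts, with 353 isoforms of 155855 that share exons with a gene of their symbol, and 124 circular RNAs (circRNAs) of 17369. The choice used names and no measured value. The samples were prefrontal cortex of male C57BL/6 mice aged 30 weeks. In the PS NP group (3 samples) the mice had received polystyrene nanoparticles at 50 mg/kg body weight by daily gavage for 6 months, starting at 5 weeks of age, and in the control group (3 samples) they had received water (0 mg/kg). The labels name no genetic change in either group. Nothing in them says whether a sample is 1 animal or a pool, so the p-values below measure only the spread between these samples, which may be technical.

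Voltage-gated sodium channels carry the inward current that starts and propagates the action potential. Each has 1 large alpha subunit, which forms the pore and the voltage sensor, and beta subunits that set its gating and its place in the membrane. Voltage-gated calcium channels turn depolarisation into calcium entry, which releases transmitter at presynaptic terminals and signals to the nucleus from the soma and dendrites. Their pore is an alpha1 subunit, and most of the high-voltage-activated ones also need an intracellular beta subunit and an extracellular alpha2delta subunit to reach the surface.

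The linear libraries held 53344395 to 63466209 estimated counts in the PS NP group and 61842978 to 66004386 in the control group, of which channel genes took 0.446% to 0.465% in the PS NP group and 0.453% to 0.496% in the control group. Back-splice reads, which count circRNAs, were few in the same libraries, at 15658 to 19880 in the PS NP group and 17554 to 19957 in the control group. Markers of cortical excitatory neurons summed to 1369 to 1579 counts per 1000000 counts (CPM) in the PS NP group and 1191 to 1527 CPM in the control group, and all 7 of them were detected. Interneuron markers, at 635 to 749 CPM in the PS NP group and 629 to 688 CPM in the control group, were present too. Markers of other tissue differed more between libraries. Choroid plexus markers (5 of 5 tested) summed to 25.6 to 851 CPM in the PS NP group and 15.1 to 460 CPM in the control group. In both groups this sum was lowest in replicate 1 and highest in replicate 2. The 6 markers of striatal neurons summed to 42.0 to 152 CPM in the PS NP group and 65.3 to 147 CPM in the control group. The 4 meningeal markers summed to 29.2 to 46.7 CPM in the PS NP group and 23.2 to 32.1 CPM in the control group, and the 4 blood markers to 140 to 251 CPM in the PS NP group and 195 to 350 CPM in the control group. No marker of these 4 lists had an edgeR adjusted p under 0.05, and their part in the channel values was not tested. In bulk tissue, fewer cells of a type and less RNA per cell cannot be told apart.

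No channel gene passed the test between PS NP and control. Of the 32 genes, 26 had a mean of at least 0.5 FPKM, the deposited level that divides reads by transcript length and library size, and were tested, and 0 of the 26 had an edgeR adjusted p under 0.05, against 0.0247% of the 20272 genes tested. DESeq2 called 0 of the 26 as well, against 0.232% of all genes. At an unadjusted p under 0.05, edgeR had 1 of 26, Cacnb2, against 2.73% of all genes. The log2 differences (PS NP over control) of the 26 genes lay between -0.50 and 0.42, with a median of -0.07, against -0.01 for all genes tested. They were below 0 in 20 of the 26 genes, and in 51.5% of all genes. On the FPKM scale, limma gave a median of -0.12 and values below 0 in 19 of the 26 genes, and in 57.5% of all genes, whose median was -0.04. The median standard error of the 26 was 0.21.

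**Figure D1:**
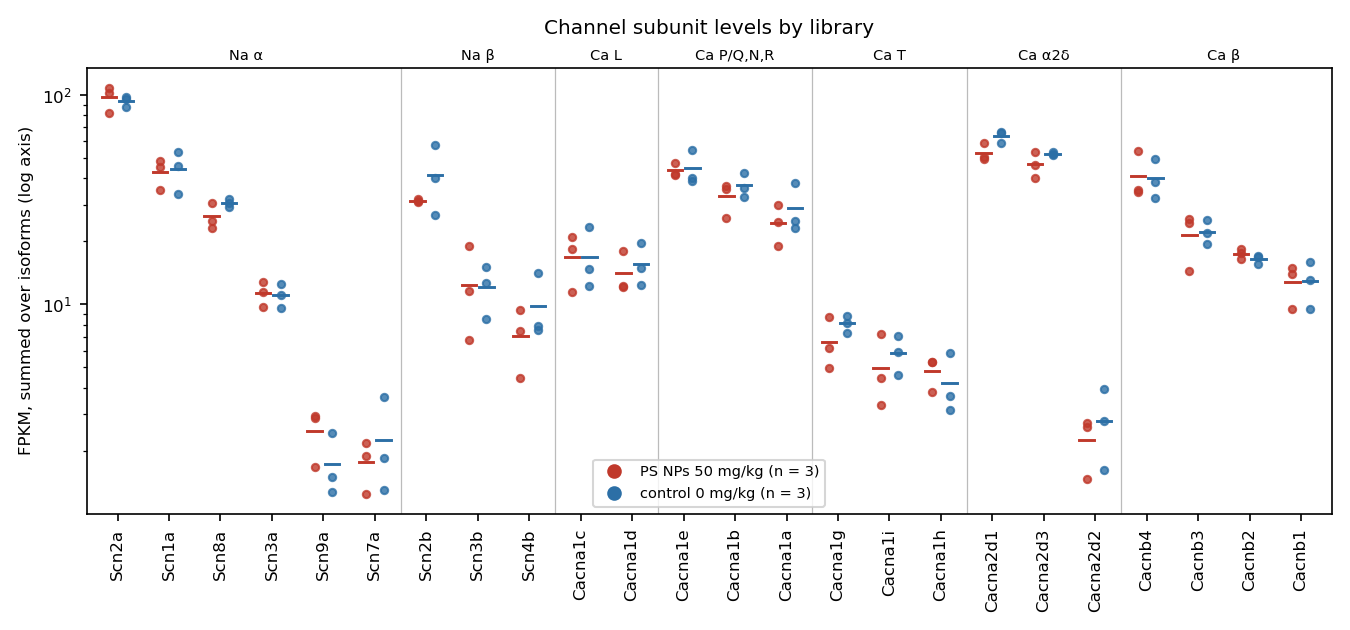
FPKM of 24 tested channel genes (log axis), summed over isoforms, by family, with PS NP libraries in red left of control libraries in blue; each point is 1 library and each bar the mean of 3. The levels span from Scn2a near 100 FPKM to Scn7a and Scn9a near 2 FPKM, and only Cacna2d1 has groups that do not overlap.

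Among the sodium channel alpha subunits, Scn2a was the highest in every library. Scn2a, the main alpha subunit of cortical excitatory neurons, had 108, 81.9 and 103 FPKM in the PS NP group, against 87.9, 97.6 and 96.1 FPKM in the control group. The PS NP libraries held both the lowest and the highest value, and the log2 difference was 0.16 (SE 0.21). Scn1a, best known from fast-spiking interneurons, had 48.2, 45.2 and 35.1 FPKM in the PS NP group, against 46.0, 33.8 and 53.7 FPKM in the control group, with a log2 difference of -0.04 (SE 0.21). Its lowest library was a control and so was its highest. Scn8a, the alpha subunit of mature axon initial segments and nodes of Ranvier, had 25.1, 30.5 and 23.2 FPKM in the PS NP group, against 29.3, 30.6 and 31.9 FPKM in the control group. PS NP replicate 2 lay inside the control range, and the log2 difference was -0.21 (SE 0.18). Scn3a, the alpha subunit most abundant in the embryonic brain, averaged 11.3 ± 1.53 FPKM in the PS NP group and 11.1 ± 1.4 FPKM in the control group (SD, n = 3 each).

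The order Scn2a, Scn1a, Scn8a, Scn3a held in 6 of 6 libraries, and no 2 neighbours in it overlapped in FPKM over the 6 libraries. Below them came Scn9a and Scn7a, whose libraries overlapped. Scn9a, a channel of sensory and hypothalamic neurons, averaged 2.49 ± 0.703 FPKM in the PS NP group and 1.73 ± 0.614 FPKM in the control group, with the highest log2 difference of the 26 genes, 0.42 (SE 0.29, edgeR adjusted p = 1). Without control replicate 3 it was 0.22 and without control replicate 2 it was 0.68. Scn7a, an atypical sodium channel that senses extracellular sodium, averaged 1.77 ± 0.472 FPKM in the PS NP group and 2.26 ± 1.21 FPKM in the control group. Below the filter on low values were 3 alpha subunits. Scn10a and Scn11a, channels of nociceptive sensory neurons, averaged 0.305 and 0.0386 FPKM in the PS NP group and 0.195 and 0.0723 FPKM in the control group. Scn4a, the skeletal muscle channel, had 7 counts in PS NP replicate 2 and 0 in the other 5 libraries.

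Sequences at the start sites of Scn8a are shown because the gene's counts divided between 2 starts and 3 of its 12 circRNAs began at 1 of them. RefSeq lists both starts in GRCm38.p6, and each is printed here with 50 bases before and 50 from the start on, 5′ to 3′, the last 2 bases before the start in capitals. The upstream start lies at chr15:100870595-100870694, plus strand, and the downstream one at chr15:100936221-100936320, plus strand. A Cacna1e start listed by RefSeq, at chr1:154725871-154725970 on the minus strand, is shown beside them because circRNAs of that gene had their 5′ end at it.
Scn8a upstream: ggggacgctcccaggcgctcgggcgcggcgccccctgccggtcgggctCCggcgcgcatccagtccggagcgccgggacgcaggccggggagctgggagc
Scn8a downstream: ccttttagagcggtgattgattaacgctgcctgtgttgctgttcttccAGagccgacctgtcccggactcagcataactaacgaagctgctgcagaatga
Cacna1e listed: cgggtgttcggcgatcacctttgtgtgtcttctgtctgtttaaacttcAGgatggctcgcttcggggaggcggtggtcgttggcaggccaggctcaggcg

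The upstream Scn8a start has CC before it, and the downstream one has AG, the letters that end an intron at a splice acceptor. AG stands before 6.07% of the 32851 RefSeq starts and before 6 of 34 starts of channel genes. Isoforms that start within 300 bases of the upstream site held 54.1%, 72.6% and 73.0% of the Scn8a counts in the PS NP group, against 82.8%, 66.9% and 74.7% in the control group. Those near the downstream site held 42.7%, 24.7% and 24.4% in the PS NP group, against 15.5%, 29.9% and 17.3% in the control group. The groups overlapped at both sites, and PS NP replicate 1 had the lowest share upstream and the highest downstream. No isoform with counts began near the Cacna1e site. Of the circRNAs, 3 of Scn8a (17 reads) had their 5′ end exactly at the downstream site, and 2 of Cacna1e (16 reads) at the listed site. Over all genes, 35 RefSeq starts coincided with the 5′ end of a circRNA of the gene, and 35 of these 35 had AG before them. Back-splices join at splice acceptors, where AG is the rule, so this count followed from the choice of sites. It is no evidence on the Scn8a or Cacna1e starts.

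Scn2b, Scn3b and Scn4b encode sodium channel beta subunits, which are adhesion molecules with an immunoglobulin domain, and none of these 3 passed the test. Scn2b exceeded Scn3b without overlap. Scn2b, which is linked to the alpha subunit by a disulfide bond, had 30.7, 31.8 and 31.1 FPKM in the PS NP group, against 26.8, 40.3 and 58.0 FPKM in the control group. The PS NP libraries were close together, inside a wide control range, and the log2 difference was -0.38 (SE 0.24). Without control replicate 3 it was -0.10 and without control replicate 1 it was -0.59. Scn4b, the other disulfide-linked beta subunit, averaged 7.09 ± 2.49 FPKM in the PS NP group and 9.86 ± 3.66 FPKM in the control group, with a log2 difference of -0.46 (SE 0.30), which was -0.15 without control replicate 3 and -0.69 without PS NP replicate 3. Scn3b averaged 12.4 ± 6.16 FPKM in the PS NP group and 12.1 ± 3.34 FPKM in the control group, with a log2 difference of 0.06 (SE 0.57).

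Of the presynaptic calcium channel alpha1 subunits, Cacna1e of the R-type channel was the highest. Cacna1e had 42.1, 41.7 and 47.2 FPKM in the PS NP group, against 40.3, 54.8 and 38.8 FPKM in the control group. The PS NP values lay inside the control range, with a log2 difference of 0.03 (SE 0.19). Cacna1b, the pore of the N-type channel, had 25.9, 36.9 and 35.6 FPKM in the PS NP group, against 32.7, 42.6 and 36.0 FPKM in the control group, with a log2 difference of -0.08 (SE 0.17). The lowest library was a PS NP one and the highest a control, and the other 4 interleaved. Cacna1a, the pore of the P/Q-type channel, averaged 24.5 ± 5.33 FPKM in the PS NP group and 28.8 ± 8.06 FPKM in the control group, with a log2 difference of -0.11 (SE 0.18). Cacna1e exceeded Cacna1b in 6 of 6 libraries and Cacna1b exceeded Cacna1a in 5 of 6, while the ranges over libraries overlapped in both pairs.

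The L-type channels carry calcium signals from the soma and dendrites to transcription, and Cacna1c and Cacna1d are their brain forms. Cacna1c averaged 16.9 ± 4.87 FPKM in the PS NP group and 16.8 ± 5.80 FPKM in the control group, with a log2 difference of -0.06 (SE 0.32). Cacna1d averaged 14.1 ± 3.30 FPKM in the PS NP group and 15.7 ± 3.70 FPKM in the control group, with a log2 difference of -0.07 (SE 0.23). Each of them was the higher one in 3 of 6 libraries. Cacna1f, the retinal form, averaged 0.114 FPKM in the PS NP group and 0.129 FPKM in the control group, and Cacna1s, the skeletal muscle form, averaged 0.0435 FPKM in the PS NP group and 0.0164 FPKM in the control group. Both were below the filter.

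The T-type channels open at low voltage and support burst firing, and none of the 3 passed the test. Cacna1g averaged 6.63 ± 1.92 FPKM in the PS NP group and 8.11 ± 0.781 FPKM in the control group, with a log2 difference of -0.26 (SE 0.18). Cacna1i averaged 4.98 ± 2.01 FPKM in the PS NP group and 5.87 ± 1.23 FPKM in the control group, with a log2 difference of 0.09 (SE 0.30). Cacna1h averaged 4.81 ± 0.865 FPKM in the PS NP group and 4.21 ± 1.45 FPKM in the control group, with a log2 difference of -0.17 (SE 0.29). For Cacna1i and Cacna1h the sign of the count difference was opposite to that of the FPKM means. Cacna1g exceeded Cacna1i in 6 of 6 libraries.

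The alpha2delta subunits carry the channels to the surface, and Cacna2d1 and Cacna2d2 are the binding sites of gabapentin. Cacna2d1 had 50.5, 49.3 and 58.9 FPKM in the PS NP group, against 59.0, 66 and 66.3 FPKM in the control group. Every PS NP library lay below every control library on this scale, with the nearest pair almost touching. Cacna2d1 was the only gene of the 26 whose FPKM did not overlap between the groups, against 7.01% of all genes. In counts the groups did overlap, at 468, 483 and 598 CPM in the PS NP group and 623, 548 and 543 CPM in the control group, and the log2 difference was -0.15 (SE 0.15, edgeR adjusted p = 1). Cacna2d3 had 46.3, 53.3 and 40.3 FPKM in the PS NP group, against 52.5, 51.5 and 53.4 FPKM in the control group. PS NP replicate 2 lay among the controls, and the log2 difference was -0.22 (SE 0.16). Cacna2d1 exceeded Cacna2d3 in 5 of 6 libraries with overlapping ranges, and both exceeded Cacna2d2 in every library. Cacna2d2 averaged 2.26 ± 0.682 FPKM in the PS NP group and 2.78 ± 1.17 FPKM in the control group. Cacna2d4, a retinal subunit, was below the filter, at 0.260 FPKM in the PS NP group and 0.221 FPKM in the control group.

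Among the intracellular beta subunits, which bind the pore and promote its traffic to the membrane, Cacnb4 was the highest. Cacnb4 had 53.8, 34.6 and 35.1 FPKM in the PS NP group, against 49.3, 32.2 and 38.5 FPKM in the control group. Replicate 1 was the highest in each group, and the log2 difference was -0.02 (SE 0.25). Cacnb3 averaged 21.5 ± 6.12 FPKM in the PS NP group and 22.3 ± 2.90 FPKM in the control group, and lay below Cacnb4 in every library. Cacnb1 averaged 12.8 ± 2.88 FPKM in the PS NP group and 12.9 ± 3.22 FPKM in the control group. The log2 differences were -0.02 for Cacnb3 and -0.08 for Cacnb1.

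Cacnb2 had the lowest unadjusted p of the channel genes, and its direction depended on the scale. In counts it had 70.6, 73.6 and 63.8 CPM in the PS NP group, against 108, 98.2 and 88.3 CPM in the control group. Every PS NP library lay below every control, which on the CPM scale held for 1 of the 26 genes and for 3.75% of all genes. The log2 difference was -0.50 (SE 0.14), with an edgeR adjusted p of 1 and a DESeq2 adjusted p of 0.709. In FPKM, which divides by isoform length, it had 16.4, 18.4 and 17.6 in the PS NP group, against 15.6, 16.8 and 17.0 in the control group. Here the PS NP mean was the higher one and the groups overlapped, with a limma log2 difference of 0.08. The assembled isoform MSTRG.20725.1, of 12156 bases, held 0.332%, 0.0316% and 24.5% of the Cacnb2 counts in the PS NP group, against 43.6%, 33.5% and 33.1% in the control group. The part of isoform length in this reversal was not tested. Assembled transcripts of Cacnb2 that the gene count leaves out held 83.2% to 87.3% of all counts under the symbol in the PS NP group and 79.0% to 83.7% in the control group. Over all channel genes, 48 of 51 transcripts left out in this way lay inside introns.

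**Figure D2:**
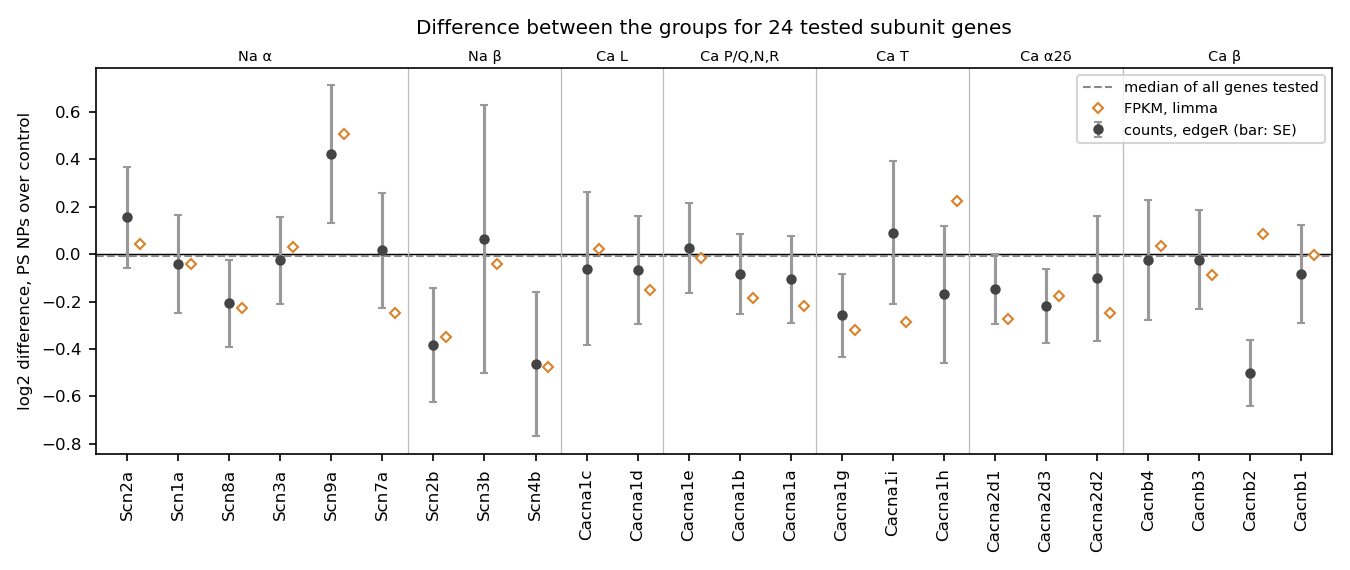
Log2 difference between PS NP and control for 24 tested channel genes, by family: filled points with SE bars are from counts (edgeR), open diamonds from FPKM (limma), and the dashed line is the median of all genes tested. Cacnb2 lies at -0.50 in counts and at 0.08 in FPKM.

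Channel transcripts were divided among many isoforms, and the division differed between libraries of the same group. Of 25 channel genes with a mean of at least 100 counts and at least 2 isoforms with counts, 4 (16%) had the same leading isoform in all 6 libraries. These were Scn7a, Scn8a, Scn10a and Cacna1h, and the share over all 12321 such genes was 47.4%. Channel genes had a median of 10 isoforms with counts, against 5 for all genes. The distance between the isoform shares of 2 libraries, which is the percentage of counts assigned differently, had a median of 35.8 percentage points between groups and 37.3 within groups for channel genes. Over all genes it was 21.5 between groups and 21.2 within. The distance between groups was the larger one in 6 of the 25 channel genes (24.0%), and in 38.4% of all genes.

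Scn1a shows how far 2 libraries of a group could differ. Its annotated isoform ENSMUST00000112371 held 3.18%, 73.0% and 74.9% of the counts in the PS NP group, against 73.7%, 78.9% and 48.0% in the control group. In PS NP replicate 1, 69.6% of the counts went to the assembled MSTRG.21642.8 instead. Cacna2d1 split in a like way: the assembled MSTRG.29052.9 held 57.8%, 88.2% and 89.7% in the PS NP group, against 88.6%, 10.5% and 8.40% in the control group. In control replicates 2 and 3 the annotated ENSMUST00000078272 held 76.7% and 77.1%. The Scn8a isoform MSTRG.14510.3, which starts at the upstream site printed above, led in every library, with 53.8%, 72.2% and 72.5% in the PS NP group and 82.1%, 66.5% and 70.3% in the control group.

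For the other genes the isoform of highest mean share is given with its lowest and highest share over the 6 libraries. Isoforms that led in 4 or 5 libraries were MSTRG.21624.4 of Scn2a (15.7% to 47.1%), ENSMUST00000100064 of Scn9a (39.2% to 92.5%), MSTRG.38640.2 of Cacna1a (1.51% to 82.2%) and MSTRG.20896.19 of Cacna1b (32.0% to 49.1%). The same held for MSTRG.11768.15 of Cacna1d (27.6% to 42.1%), ENSMUST00000168532 of Cacna2d2 (12.5% to 93.4%), ENSMUST00000017552 of Cacnb1 (0% to 85.8%) and MSTRG.21448.3 of Cacnb4 (26.9% to 46.9%). Those that led in 1 to 3 libraries were MSTRG.21622.4 of Scn3a (37.4% to 65.7%) and ENSMUST00000114956 of Scn3b (22.5% to 69.4%). Among the calcium channel genes these were MSTRG.33585.1 of Cacna1c (0% to 63.7%), MSTRG.2199.4 of Cacna1e (14.7% to 32.3%), MSTRG.14005.3 of Cacna1i (0% to 96.0%), MSTRG.11747.14 of Cacna2d3 (19.2% to 36.0%), MSTRG.20725.4 of Cacnb2 (11.03% to 52.7%) and ENSMUST00000230490 of Cacnb3 (2.96% to 95.2%). ENSMUST00000042792 of Scn7a led in all 6, with 88.5% to 100%. Scn2b (ENSMUST00000170998) and Scn4b (ENSMUST00000060125) each had counts in 1 isoform only.

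Of 164 channel isoforms tested, 0 had an edgeR adjusted p under 0.05, against 0.00433% of the 69333 isoforms tested, and 5 had an unadjusted p under 0.05, against 3.58%. DESeq2 called 2 of the 164, against 1.41% of all isoforms. The first was MSTRG.20896.8, an assembled isoform of Cacna1b with 15 exons, on chromosome 2 from 24606379 to 24647626, minus strand, which starts inside the gene. It had 0 counts in each PS NP library and 1086, 2434 and 1321 in the controls, which is at least 1493-fold lower in the PS NP group when 3 counts over the group stand for the floor. The edgeR adjusted p was 0.302 and that of DESeq2 was 1.0e-20. It met the FPKM filter only through the controls, so its p-values and fold are no independent support for a difference. Over the whole gene, the Cacna1b log2 difference was -0.08.

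The second was ENSMUST00000107791, an annotated Cacna1g isoform with 34 exons. It had 18, 927 and 1170 counts in the PS NP group and 0 in each control, at least 762-fold higher in the PS NP group by the same floor. It met the FPKM filter through the PS NP group only, so its p-values and fold have the same limit. The edgeR adjusted p was 1 and that of DESeq2 was 8.8e-08. Its share of the Cacna1g counts was 1.16%, 44.4% and 56.3% in the PS NP group, so that PS NP replicate 1 stood close to the controls. ENSMUST00000107789 held 78.8%, 7.71% and 1.88% in the PS NP group, against 7.77%, 73.5% and 59.6% in the control group. In control replicate 1, ENSMUST00000107793 led with 61.0%, so the controls did not share 1 pattern. The 2 annotated isoforms share their start and end, so reads from the exons they have in common had to be divided between them.

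Shares without overlap between the groups occurred in 20 of 259 channel isoforms (7.72%), against 8.25% of all isoforms in such genes. Of these, the largest differences in mean share were in the Cacna1g and Cacnb2 isoforms above. ENSMUST00000186889 of Cacna1c held 5.24%, 20.8% and 0.726% in the PS NP group, against 0%, 0.459% and 0.275% in the control group. ENSMUST00000159610, the main Cacna1h isoform, held 85.0%, 86.7% and 78.1% in the PS NP group, against 88.9%, 89.95% and 89.7% in the control group.

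**Figure D3:**
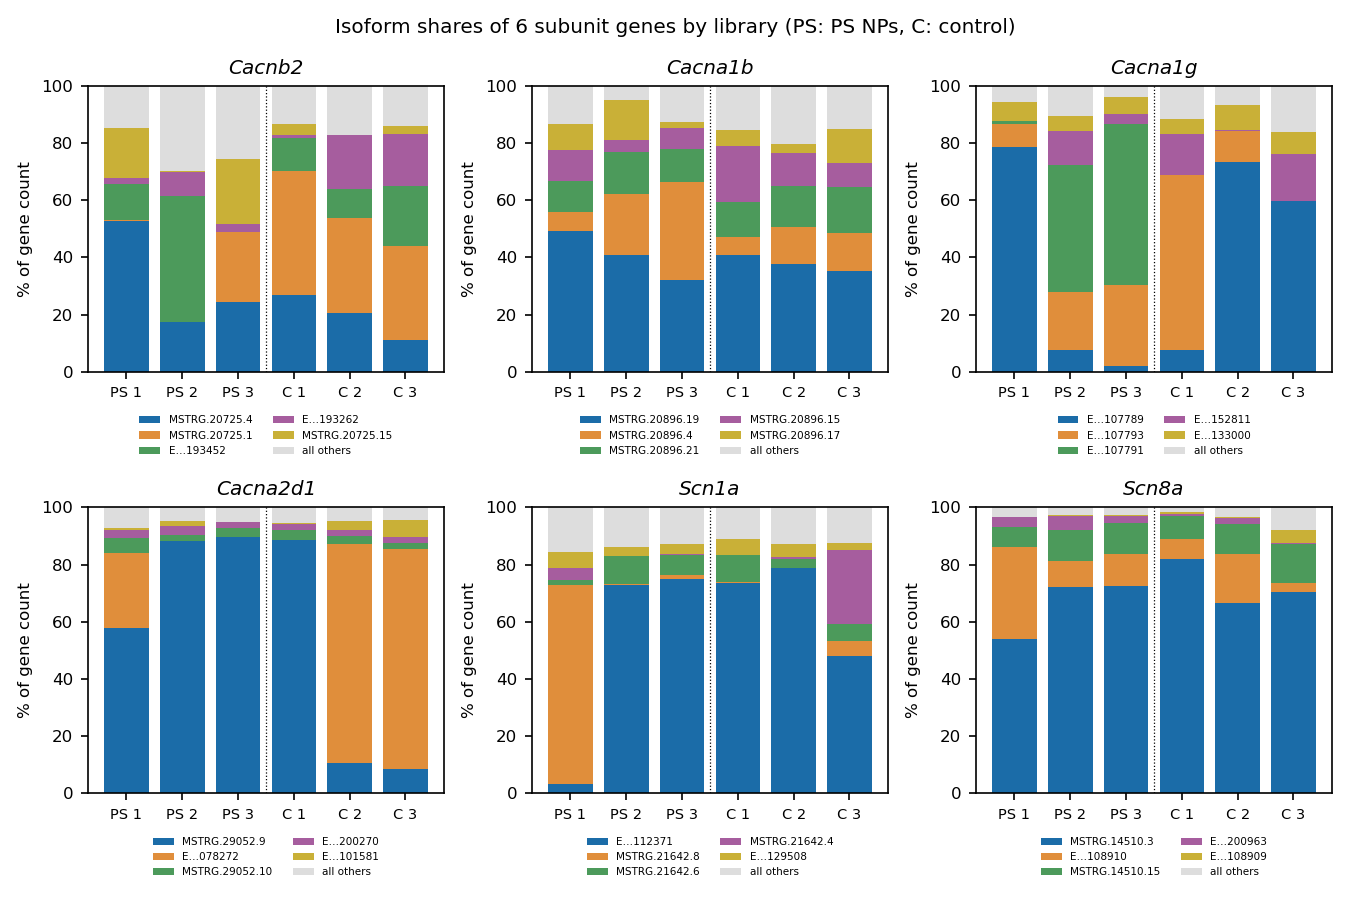
Isoform shares (percent of the gene's count) of 6 channel genes in each library, with the 5 isoforms of highest mean share in colour and all others in grey; PS NP libraries (PS) stand left of the dotted line and controls (C) right of it. For Cacnb2, Cacna1b, Cacna1g, Cacna2d1 and Scn1a the leading isoform changes within a group, while for Scn8a 1 isoform leads in all 6 libraries.

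Exonic circRNAs are closed by a splice from a downstream donor back to an upstream acceptor. All circRNAs here, those listed as intronic included, are counted by reads across the closing junction. The 124 circRNAs of channel genes came from 16 host genes and held 509 back-splice reads over the 6 libraries. Reads in a single library were all that was seen for 85 of them (68.5%), against 66.1% of all circRNAs, and 19 were listed as intronic. Of the 124, 18 (14.5%) had reads in at least 3 libraries and were tested, against 18.9% of all circRNAs. None of the 18 had an edgeR adjusted p under 0.05, against 0.0305% of the 3275 tested. The count of DESeq2 was also 0, and 3 of the 18 had an unadjusted edgeR p under 0.05, against 4.95%. Relative to the host gene, edgeR called 0 of 18, against 0.0636%, with 3 at an unadjusted p under 0.05, against 5.25%. The 3 were the same circRNAs in both tests. Each met the filter only through the group where it had reads, so these counts are no support for a difference.

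Counted as listed in the table, the circRNA with most reads was mmu_circ_0001511 of Cacna1c (chromosome 6, 119052601 to 119057515). With starts 1 base apart merged, circRNA2217 of Cacna2d1 had more, 40 against 38. The Cacna1c circle had 12, 2 and 5 reads in the PS NP group and 9, 5 and 5 in the control group. The next, mmu_circ_0015049 of Cacna1a (chromosome 8, 84583559 to 84588859), had 5, 6 and 2 in the PS NP group and 8, 8 and 3 in the control group. Both had reads in every library, and their groups overlapped. Cacna2d1 gave circRNA2217, with 15, 3 and 0 reads in the PS NP group and 5, 7 and 1 in the control group. It also gave mmu_circ_0001317, with 4, 2 and 6 in the PS NP group and 5, 6 and 5 in the control group. Cacna1b gave circRNA2953, with 1, 2 and 7 in the PS NP group and 6, 3 and 1 in the control group. None of these 3 had groups apart. Scn2a gave mmu_circ_0010099, with 4, 3 and 1 in the PS NP group and 3, 7 and 0 in the control group. Cacna1c gave mmu_circ_0012990, with 6, 1 and 4 in the PS NP group and 3, 4 and 0 in the control group. The Cacna2d3 circle circRNA4060 had reads in replicate 1 of each group only, 5 in the PS NP group and 9 in the control group, and was not tested.

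The 3 circRNAs with an unadjusted p under 0.05 had few reads. ciRNA311 of Cacna1e, listed as intronic, had 0 reads in each PS NP library and 2, 2 and 4 in the controls. The Cacna1b circle mmu_circ_0009724 had 1, 4 and 1 reads in the PS NP group and 0 in each control. circRNA12039 of Cacna1a had 1 read in each PS NP library and 0 in each control. Each of the 3 met the filter of 3 libraries only through the group where it had reads, which fixed the separation in advance. The edgeR adjusted p was 0.826 for ciRNA311, and counts this low are at or near the floor of 3 reads.

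**Figure D4:**
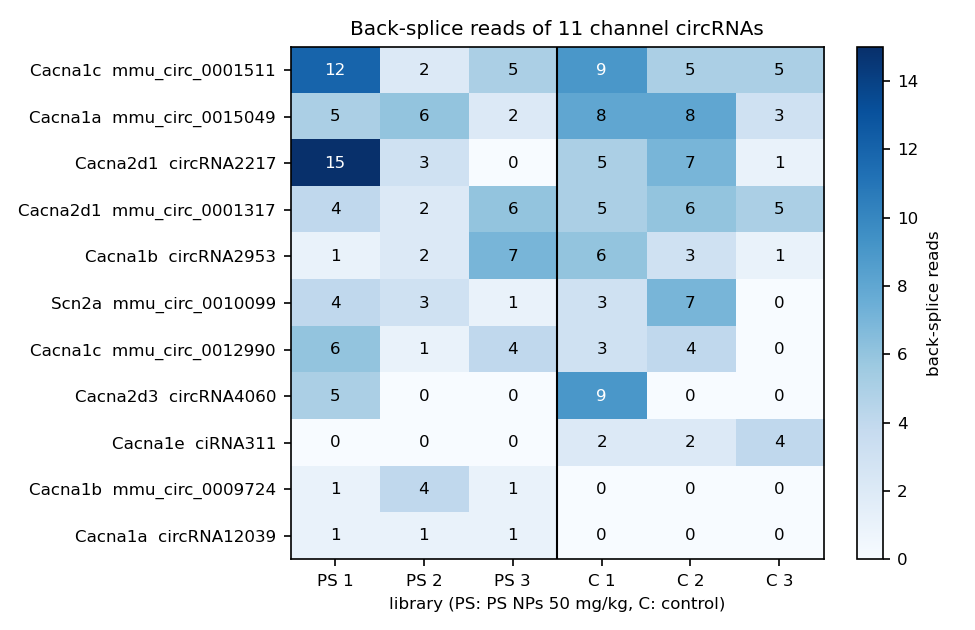
Back-splice reads of the 8 channel circRNAs with most reads and of the 3 with an unadjusted p under 0.05, by library, with PS NP libraries (PS) left of the line and controls (C) right of it; darker cells hold more reads. The highest cell is 15 reads, and the 3 lowest rows have reads in 1 group only.

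The back-splice reads of a host gene were also set against its linear counts, which are not divided by transcript length, so the values serve to compare libraries and not genes. For Cacna1c the libraries of a group differed, with 3.31, 0.528 and 0.947 back-splice reads per 1000 linear counts in the PS NP group and 3.66, 1.07 and 0.915 in the control group. Scn8a gave 0.327, 0.313 and 0.278 in the PS NP group, against 0.481, 0.401 and 0.444 in the control group. These rest on 5, 5 and 4 reads in the PS NP group and 11, 7 and 8 in the control group, and the groups did not overlap. Cacna1e gave 0.0897, 0.173 and 0.156 in the PS NP group, against 0.280, 0.183 and 0.183 in the control group, again without overlap. These rest on 4, 5 and 7 reads in the PS NP group and 11, 9 and 7 in the control group, so the read counts met. Of these reads, ciRNA311 gave 0 in each PS NP library and 2, 2 and 4 in the controls. Of the 12 channel host genes with reads in at least 3 libraries, 2 were lower in PS NP without overlap, and the share over 2354 such host genes was 5.23%.

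The proteins that anchor, scaffold or tune these channels were listed with earlier results known, and none of those tested was called, against 0.0247% of all genes. Of 12 sodium channel partners, all 12 were tested, 4 had a log2 difference above 0 and 8 below, with a median of -0.07. Fgf12 and Fgf13, intracellular FGF homologues that bind the channel's cytoplasmic tail, had log2 differences of 0.23 (SE 0.17) and -0.24 (SE 0.17). Fgf11, of the same family, stood at -0.72 (SE 0.64), and the ankyrin Ank2 at 0.08 (SE 0.12). Of 25 calcium channel partners, 18 were tested, 8 had a log2 difference above 0 and 10 below, with a median of -0.02. Over all genes tested, 51.5% were below 0 and the median was -0.01. Rem2, a GTPase that inhibits high-voltage-activated channels, stood at -0.85 (SE 0.44), and Cacng2 (stargazin), better known for the traffic of AMPA receptors, at -0.38 (SE 0.20). Caln1, a calmodulin-like protein, stood at 0.26 (SE 0.26), and the calmodulin gene Calm3 at 0.14 (SE 0.15).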

How the data were processed

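RNA of 3 PS NP and 3 control samples of mouse prefrontal cortex was sequenced after ribosomal RNA depletion with a stranded kit, per the labels' protocols. HISAT2, StringTie and TopHat are named, per the submitters' processing notes, and no version or genome build is given in the sources used here. The first deposited table gives FPKM and an estimated count, all whole numbers, for every linear isoform. In the second, the authors give for each circRNA a count of reads over its closing junction and SRPBM, a signal equal to that deposited count scaled by the library total. A gene's count is the sum of the deposited estimated counts of its isoforms (class codes =, j, c, o and e), which leaves out transcripts inside introns. Isoforms without counts carry 0.0001 FPKM in the deposited table. Near-identical exons shared by channel genes or isoforms can be divided by the authors' counting.

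Tests took in genes or isoforms averaging 0.5 FPKM or more and circRNAs seen in at least 3 of 6 libraries. PS NP was set against control, two-sided, with edgeR 4.0.16 (R 4.3.3) quasi-likelihood tests, TMM factors (for circRNAs the totals behind SRPBM), and Benjamini-Hochberg adjustment over all features at 0.05. The circRNA test relative to the host gene used the host's count as an offset. CPM are counts per 1000000 gene counts after TMM scaling. DESeq2 1.42.0 and limma 3.58.1 on log2(FPKM + 0.1) or log2(FPKM + 1) were alternatives, as were other filters, annotated isoforms only, the isoform of highest mean only, a replicate block and leaving out each library. The scripts were tested on simulated data with changes larger than the log2 differences of the channel genes. Whether differences of the observed size could be found was not tested. With 3 samples against 3, an exact permutation test cannot go below p = 0.1.

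The members, lists and tests were chosen with earlier results of these data known. Named genes: all members, with values in every library for the 10 of highest FPKM and any with p under 0.05; the isoform of highest mean share of each tested gene with at least 2 isoforms in use; the 6 isoforms with the largest difference in mean share without overlap; the 8 circRNAs with most reads and those with p under 0.05; the 2 partners of smallest p in each direction. Of these genes, 2 count in the totals but are not reported here, nor are their isoforms, 1 of them among the 6. Isoforms and libraries shown in further detail and the starts whose sequence is printed were chosen after their values were seen. Sequences are from RefSeq (GRCm38.p6), which had a start for 24 of the 32 genes. Of 25166 RefSeq starts with a gene in the linear table, 46.8% equalled the start of an isoform there (23 of 34 for channel genes), so positions of both were set side by side.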

Additional observations from a re-analysis of the deposited data

How the results depend on the processing

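No channel gene, isoform or circRNA passed the threshold under any alternative run, except that DESeq2 called 2 isoforms, MSTRG.20896.8 (log2 -12.95) and ENSMUST00000107791 (log2 12.11). Both met the FPKM filter only through the group where they had counts. Over all features the calls ranged from 0 to 47 for genes, 0 to 978 for isoforms and 0 to 4 for circRNAs (1 to 4 relative to the host gene). Many small log2 differences changed sign, and the cause was not tested. With annotated isoforms only, Cacnb4 was 0.45, Cacna1b 0.57, Scn8a 0.42 and Scn9a -0.0737, while Cacna2d1, without a change of sign, was -1.95. With the isoform of highest mean only, Cacna2d1 was 0.94, Cacna1e -0.21 and Scn9a -0.0688, while Cacnb2 was -2.76 and Cacna1g -1.24 without a change of sign. On the FPKM scale, limma gave Cacna1e -0.0171, Cacnb4 0.0326 and Cacnb2 0.0838 with a pseudocount of 0.1, and Cacna1e -0.0171, Cacnb4 0.0320 and Cacnb2 0.0796 with 1. Leaving out 1 library at a time gave Scn2a -0.00921 to 0.32, Scn1a -0.21 to 0.0904, Cacna1e -0.0820 to 0.17, Cacna1b -0.17 to 0.0379 and Cacnb4 -0.26 to 0.19. Without a change of sign, Cacnb2 ranged over -0.57 to -0.43, Scn9a over 0.22 to 0.68, Scn2b over -0.59 to -0.10 and Scn4b over -0.69 to -0.15. The same held for Cacna1g (-0.41 to -0.12), Scn8a (-0.32 to -0.0380), Cacna2d3 (-0.31 to -0.0947) and Cacna2d1 (-0.26 to -0.0725).

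The labels do not say whether the replicate numbers mark pairs, and the main tests did not pair the samples. Same-numbered samples deviated together with correlations of 0.22, 0.12 and 0.06, and every sample correlated best with its own number. A shared structure between same-numbered samples is therefore possible. With the replicate block, 0 channel genes, isoforms or circRNAs were called, and 0 of all genes, against 5 without it. Over all isoforms the calls were 0, against 3 without it. Over all circRNAs they were 3, against 1 without it, and relative to the host gene 4, against 2. Merging circRNAs that start 1 base apart, an alternative chosen after seeing the data, left 22 channel circRNAs tested and 0 called. circRNA counts of a few reads limit what these libraries can show.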

Other observations

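Among the circRNAs of channel genes, 9 pairs had the same end and starts 1 base apart, and in 9 of the 9 no library had reads in both members. Over all circRNAs there were 1203 such pairs, of which 1192 had no library with reads in both. In Cacna2d1, circRNA2217 had 15, 3 and 0 reads in the PS NP group and 5, 7 and 1 in the control group, while circRNA15708, which starts 1 base later and ends at the same base, had 0, 0 and 9 in the PS NP group and 0 in each control. Together they had 15, 3 and 9 in the PS NP group and 5, 7 and 1 in the control group (log2 1.21, edgeR adjusted p = 0.976). A second Cacna2d1 pair, circRNA8970 and circRNA12462, had together 5, 0 and 7 in the PS NP group and 0, 0 and 1 in the control group (log2 3.29, edgeR adjusted p = 0.934).

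Assembled transcripts that the gene counts leave out, of which 48 of 51 lay inside introns, held most of the counts under the symbols of Cacna1c, Cacna1d and Cacna2d4 as well. For Cacna1c they held 66.9% to 80.1% in the PS NP group and 66.5% to 77.2% in the control group, and for Cacna1d 56.4% to 59.0% in the PS NP group and 57.4% to 58.9% in the control group. For Cacna2d4, which was below the filter, they held 65.8% to 69.2% in the PS NP group and 66.2% to 79.7% in the control group. Smaller shares were those of Cacna2d1, 24.9% to 37.4% in the PS NP group and 21.1% to 33.4% in the control group. For Scn8a they held 10.7% to 15.0% in the PS NP group and 9.71% to 17.2% in the control group.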
